A study of Caenorhabditis elegans with 9 samples.

Results

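Transcript signals were compared between larvae in which Wnt signaling was lowered by a heat shock inducible, truncated POP-1 (Wnt underactivation) and larvae of the N2 wild-type strain, which carry no FLAG tag. The comparison holds 3 underactivation arrays (replicates 2, 4 and 5) and 3 N2 arrays (replicates 2, 3 and 4), 6 of the 9 arrays analysed, chosen by strain and title, and 22548 of 22625 probe sets, those left once the array controls were set aside. The other 3 arrays are of Wnt overactivation (deIs10;huIs1, a heat shock inducible truncated BAR-1, replicates 1, 3 and 4) and are given only beside the comparison. Overactivation animals were dpy-20(e1282) unc-30(e191), as underactivation animals were, and their transgene huIs1 holds hsp-16.2::delNTbar-1 and dpy-20(+). Signals are deposited log2 values from Affymetrix C. elegans GeneChip arrays.

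Underactivation animals were dpy-20(e1282) unc-30(e191) and carried both deIs10 and deIs26. The integrated array deIs10 holds bar-1e::flag3x::pab-1, unc-30(+) and ajm-1::gfp. The integrated array deIs26 holds hsp-16.2::delNTpop-1 and dpy-20(+). N2 has none of these arrays and neither mutation, so the tag, the markers, the strain background and ΔNTPOP-1 cannot be told apart in this comparison. Each transgene stems from 1 integrated line, and bar-1e, an enhancer of bar-1 that is active in seam cells and vulval precursor cells, drives the tag, whereas the heat shock promoter is not limited to those cells. Both strains were grown for 26 h at 20° to the molt between the second and the third larval stage, given a heat shock of 30 min at 37° and left for 1 h, and both went through anti-FLAG coimmunoprecipitation, which in N2 has no tagged protein to hold. No ages beyond this stage are given, and the labels speak both of amplified cDNA from coimmunoprecipitated mRNA and of labeled cRNA from total RNA, so whether the hybridized material was pulled down is given by one account and not by the other.

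In Wnt signaling a secreted ligand binds Frizzled and related receptors and stops a destruction complex from degrading β-catenin, which then joins a TCF factor on target genes. POP-1 is the TCF of C. elegans. Without its N-terminal β-catenin binding part it occupies targets but cannot activate them. Seam cells are lateral epidermal cells that renew themselves at each larval division, and vulval precursor cells give rise to the vulva. Both lie in the hypodermis, and Wnt signaling acts in the fates of both.

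Over all probe sets, arrays correlated at 0.969 to 0.976 within underactivation and at 0.942 to 0.960 within N2. Underactivation replicate 4 stood apart from its group: it correlated at 0.973 with N2 replicate 4 and at 0.971 and 0.969 with its own group. On it 5079 probe sets (22.5%) lay at least 1.5-fold from the N2 mean, against 6780 (30.1%) on replicate 2 and 6929 (30.7%) on replicate 5. Each N2 array was this far from the mean of the other 2 N2 arrays in 26.9% to 29.9% of probe sets, and underactivation replicates 2, 4 and 5 were this far from the other 2 of their own group in 18.9%, 23.1% and 19.1%. On the first principal component of all arrays, which held 32.3% of the variance, replicate 4 lay at -13.9, replicates 2 and 5 at 30.2 and 32.0, and N2 between -61.1 and -51.2. The 3′ minus 5′ log2 signal of the actin control, a measure of RNA integrity and amplification, was 0.90 on replicate 4, within the N2 range of 0.67 to 0.91, and 2.08 and 2.35 on replicates 2 and 5. By the same measure of the Gapdh control, replicates 2 and 4, at 2.92 and 2.87, were within the N2 range of 2.02 to 2.96, and replicate 5, at 4.06, was outside it. Overactivation replicates 1, 3 and 4 read 1.88, 2.25 and 1.47 for actin and 3.6, 3.2 and 3.29 for Gapdh, all above the N2 ranges. The part of these in the differences below was not tested, and several results that depend on replicate 4 are given without it as well.

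The transgenes came first, since they check the labels. The pop-1 probe set read 10.28, 11.71 and 8.67 in underactivation replicates 2, 4 and 5, and 5.20, 6.42 and 4.85 in N2. All 3 underactivation arrays lay above all 3 N2 arrays. The difference in means was 4.73 log2 (SE 0.72), the largest of any named gene, with an adjusted p of 0.0799 in limma, so it did not pass at 0.05. Overactivation, whose strain lacks deIs26, read 5.27 on average. Whether the probe set tells endogenous pop-1 from the truncated transgene was not tested.

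Of the marker genes in deIs10, ajm-1, which encodes an apical junction protein, read 11.03, 10.17 and 10.95 in underactivation and 8.04, 8.50 and 7.53 in N2. Its groups did not overlap, and the difference was 2.69 log2 (SE 0.33, adjusted p = 0.0692 in limma). The 6 ajm-1 probe sets did not read alike. A further one also lay 2.64 log2 above N2 (adjusted p = 0.0692), whereas others differed by -0.14, 0.15, -0.77 and -1.57 log2. The homeobox gene unc-30 read 8.42, 7.26 and 8.68 against 7.63, 5.44 and 7.10, a difference of 1.40 log2 (SE 0.64) between groups that overlapped. A second unc-30 probe set read 6.82, 6.18 and 6.65 against 5.68, 4.10 and 5.63, all above N2 by a mean of 1.41 log2 (adjusted p = 0.361 in limma). For dpy-20, the marker in deIs26, the values were 9.93, 9.15 and 8.67 against 7.47, 8.76 and 8.82, a difference of 0.90 log2 (SE 0.44), again with overlap.

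Signals for the tagged protein and for the source of its enhancer overlapped between the strains. The gene pab-1, for the poly(A) binding protein that bears the FLAG, read 11.79, 12.47 and 12.29 in underactivation and 11.92, 12.29 and 12.56 in N2. The difference was -0.07 log2 (SE 0.27), and its other probe sets differed by 0.04 and -0.13. Levels of bar-1, whose enhancer but not coding sequence is in deIs10, were 9.55, 9.15 and 9.40 against 9.04, 9.55 and 9.18, a difference of 0.11 log2 (SE 0.48).

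**Figure D1:**
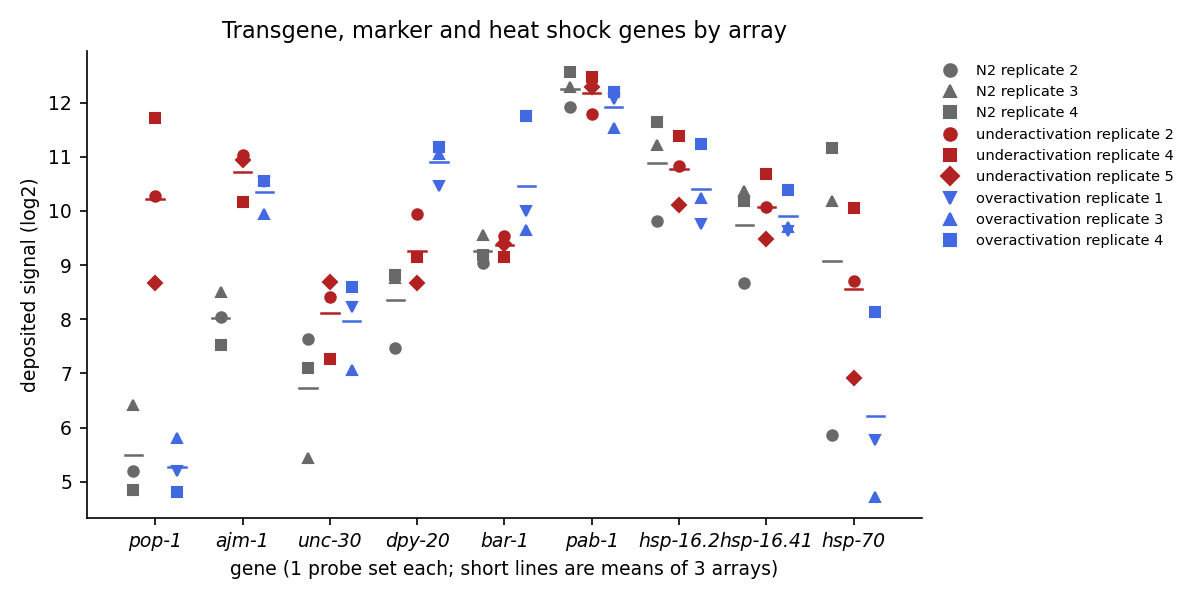
Deposited log2 signal of the genes in the transgenes and of 3 heat shock genes in each array, with N2 in grey, underactivation in red and overactivation in blue; symbols give the replicate number and short lines the means of 3 arrays. The pop-1 values of the 3 underactivation arrays lie between 8.67 and 11.71, above all other arrays, and hsp-70 spreads widely within each group.

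Heat shock was common to both groups, and its genes varied as much within the groups as between them. The small heat shock gene hsp-16.2, whose promoter drives delNTpop-1, read 10.83, 11.38 and 10.12 in underactivation replicates 2, 4 and 5 and 9.82, 11.22 and 11.64 in N2 replicates 2, 3 and 4. Its difference was -0.12 log2 (SE 0.56), and hsp-16.41, which shares that kind of induction, differed by 0.34 (SE 0.48). The inducible hsp-70 ranged from 6.92 to 10.06 in underactivation and from 5.86 to 11.16 in N2. Within underactivation, replicate 4 was highest and replicate 5 lowest for pop-1, hsp-16.2, hsp-16.41 and hsp-70 alike. Of 9 genes measured among the small heat shock genes and hsp-70, 0 passed the test, 4 had a higher and 5 a lower mean, and the median difference was -0.12 log2. It was -0.42 without underactivation replicate 4 and 0.31 without replicate 5. The small heat shock gene hsp-12.3 lay above N2 on all underactivation arrays, at 7.98, 9.13 and 10.77 against 7.77, 7.54 and 6.19. By contrast sip-1 lay below, at 10.34, 10.70 and 9.10 against 11.84, 10.81 and 11.20. Neither passed (adjusted p = 0.365 and 0.347 in limma).

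Across the array, 1 of 22548 probe sets passed at an adjusted p of 0.05 in limma, which is 0.00443% of those tested. At an unadjusted p of 0.05 there were 2890 (12.8%), of which 1468 (6.51%) were higher and 1422 (6.31%) lower in underactivation. An adjusted p under 0.1 was reached by 191 probe sets, 102 higher and 89 lower. By size, 2555 probe sets (11.3%) were at least 1.5-fold higher and 2659 (11.8%) at least 1.5-fold lower in mean. Underactivation arrays lay above every N2 array in 1871 probe sets (8.3%) and below every N2 array in 1670 (7.41%). Over the 17118 genes taken with 1 probe set each, 0 passed in limma, 2166 (12.7%) had an unadjusted p under 0.05, and the median difference was 0.03 log2. Of these genes 53.9% had a higher and 46.1% a lower mean, 9.4% lay above N2 on all underactivation arrays and 6.44% below, and 15.8% did not overlap N2 in either direction.

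The probe set that passed belongs to rig-4, which encodes an immunoglobulin domain protein related to Sidekick adhesion proteins. It is named as the single call and not by the rule for named genes, because another rig-4 probe set has the higher mean. The probe set read 4.96, 4.77 and 4.51 in underactivation and 6.95, 7.04 and 6.91 in N2, and the groups did not overlap. It fell by 2.22 on the log2 scale (SE 0.19, adjusted p = 0.0311 in limma). The other rig-4 probe set read 8.15, 7.04 and 8.20 against 8.51, 8.69 and 8.27, a difference of -0.69 log2 (SE 0.31) that did not pass. Overactivation read 4.05, 4.40 and 4.48 on the probe set that passed. The call held in 6 of 19 alternatives, with a difference between -2.33 and -2.10 log2 in all of them. It was lost when any 1 of 8 arrays was left out, all but overactivation replicate 4, at adjusted p-values up to 0.210.

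**Figure D2:**
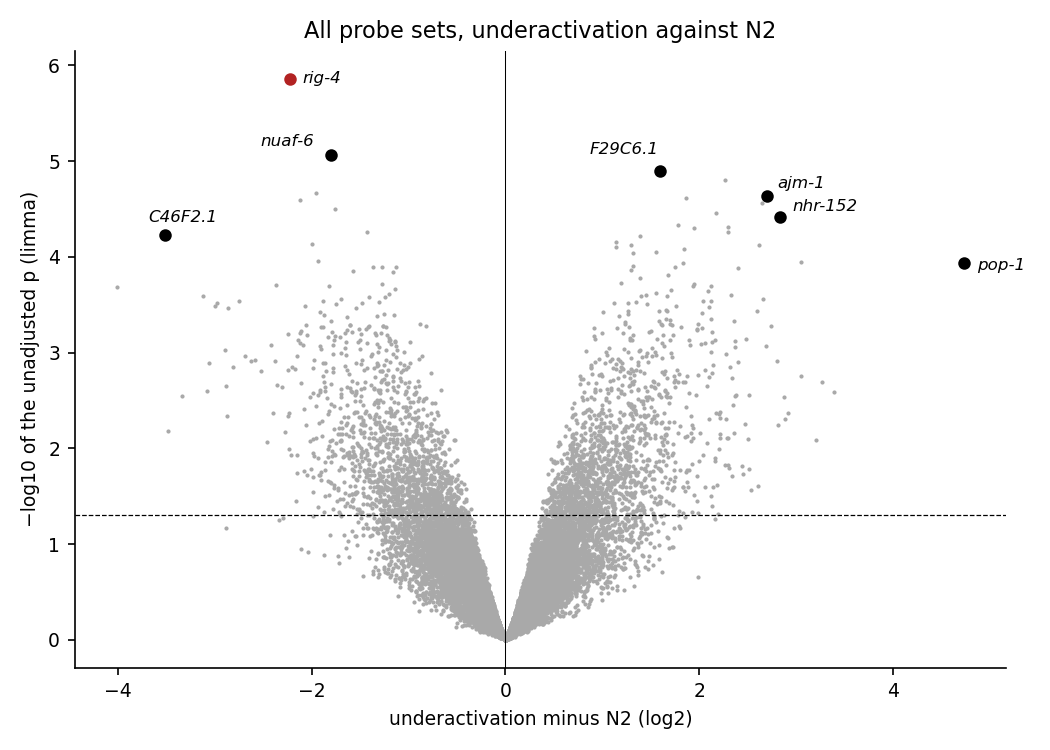
Difference in mean log2 signal, underactivation minus N2, against −log10 of the unadjusted limma p for the 22548 probe sets; the dashed line marks p of 0.05. The red point is the rig-4 probe set that passed the adjusted threshold, black points are other genes described, and pop-1 lies farthest to the right at 4.73.

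The 12 genes with the smallest p among those higher in all underactivation arrays are given as values, since none of them passed in limma. Beside ajm-1, described above, the largest differences were in nhr-152, at 7.67, 6.84 and 7.65 against 3.99, 4.52 and 5.16 (2.83 log2, SE 0.37), and grl-20, at 6.79, 6.40 and 6.53 against 3.98, 4.85 and 3.99 (2.30 log2, SE 0.31). The first encodes a nuclear hormone receptor and the second a hedgehog-related protein of the groundhog-like family. A second nuclear hormone receptor gene, nhr-237, read 7.97, 7.43 and 7.83 against 5.49, 5.75 and 5.20 (2.26 log2, SE 0.26). The gene F29C6.1 read 13.14, 12.83 and 13.11 in underactivation and 11.68, 11.36 and 11.26 in N2 (1.59 log2, SE 0.18). The remaining genes of this set, F45E1.4, K11D12.8, gda-2, F26E4.2, pugs-9, Y54G11A.4 and the F-box gene fbxa-182, had differences from 1.14 to 2.29 log2, and adjusted p-values in the whole set ran from 0.0692 to 0.0740. A second probe set of F45E1.4 differed by 0.79 log2 and one of grl-20 by 0.23, both with overlapping groups.

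Among the 12 genes lower in all underactivation arrays, C46F2.1 had the largest difference. It read 4.64, 5.43 and 5.58 in underactivation and 9.39, 9.22 and 7.57 in N2, a difference of -3.51 log2 (SE 0.49), with N2 replicate 4 nearest to underactivation. The gene ifo-1, an organizer of intestinal intermediate filaments, read 4.96, 5.55 and 5.21 against 7.10, 7.47 and 7.50. For cnnm-1, of the CNNM family of magnesium transport proteins, values were 6.30, 6.93 and 6.88 against 8.59, 8.89 and 8.51. The gene nuaf-6, named for assembly of mitochondrial complex I, read 5.82, 6.30 and 6.38 against 7.88, 8.07 and 7.96. Differences for these were -2.11, -1.96 and -1.80 log2. The Klotho-related gene klo-1 differed by -1.57 log2, and differences of C40H1.2, F35H10.10, F54F2.6, islo-1, sumv-1 and B0511.12 lay between -1.76 and -1.13 log2. Adjusted p-values in this set ran from 0.0692 to 0.0924 in limma. Second probe sets of cnnm-1 and F35H10.10 differed by -0.86 log2, all below N2, and by 0.22 log2, with overlap.

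The overactivation strain shares the tag, both mutations and the unc-30(+), ajm-1::gfp and dpy-20(+) markers. Its arrays are set against the same N2 arrays, so their values are given beside these. Overactivation minus N2 was 1.73 log2 for F29C6.1, -3.43 for C46F2.1 and -1.87 for nuaf-6, against 1.59, -3.51 and -1.80 for underactivation. C40H1.2 read otherwise, at 2.95, 3.06 and 3.18 in underactivation and at 5.42, 4.70 and 5.31 in overactivation. Tested directly, underactivation minus overactivation was -2.08 log2 for C40H1.2 (adjusted p = 0.0563 in limma), 1.14 for Y54G11A.4, 1.07 for nhr-152, -0.85 for ifo-1 and 0.82 for fbxa-182, and 0 of the 24 genes passed. Over all probe sets 1 passed that direct contrast and 1277 (5.66%) had an unadjusted p under 0.05. The probe set belongs to dod-23, which read 3.40 to 3.67 in underactivation, 3.35 to 3.78 in N2 and 6.17 to 7.06 in overactivation.

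**Figure D3:**
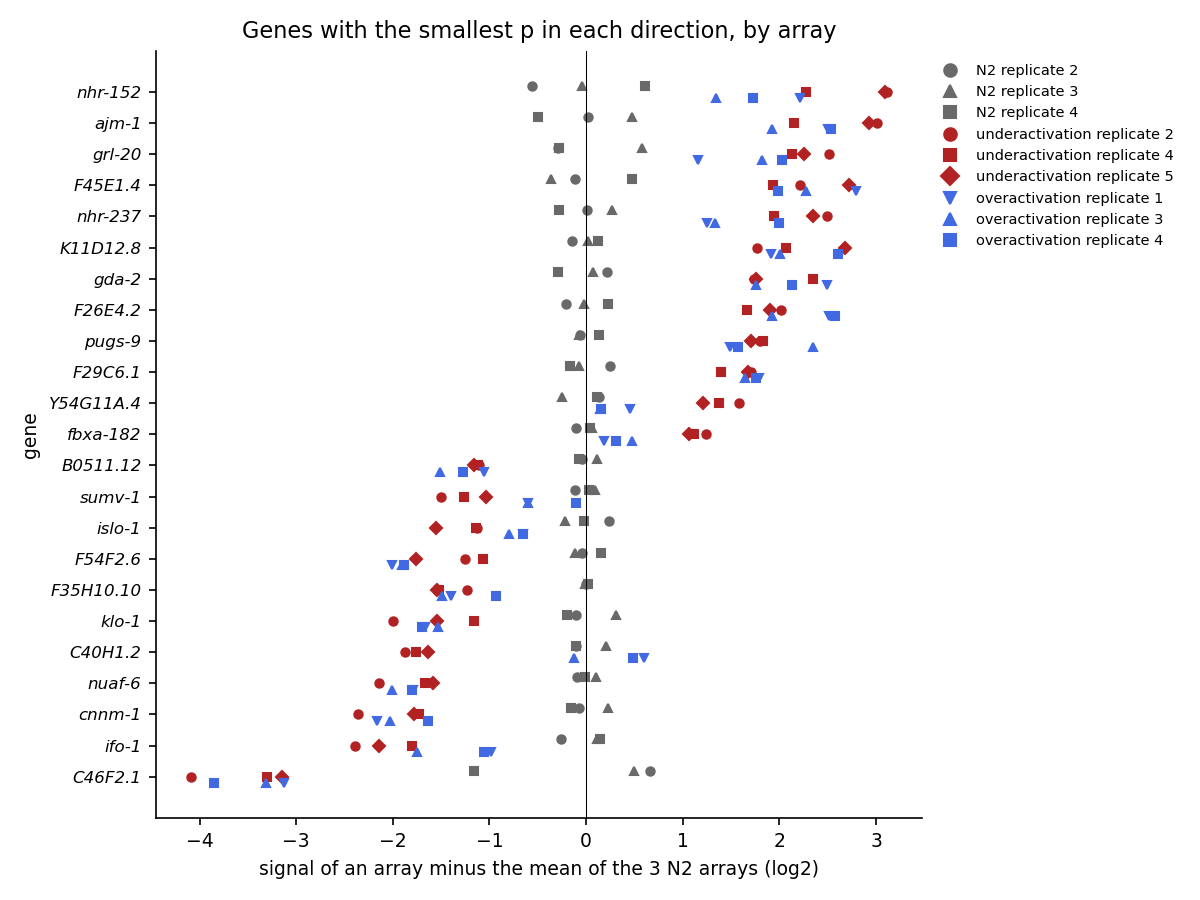
Signal of each array minus the mean of the 3 N2 arrays (log2) for 23 of the 24 genes with the smallest p in each direction among genes whose underactivation and N2 arrays do not overlap; red is underactivation, grey N2, blue overactivation, and symbols give the replicate. Underactivation arrays lie from about 1 to over 3 log2 units from N2, and for Y54G11A.4, C40H1.2, fbxa-182 and sumv-1 the overactivation means lie within 0.44 of N2.

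None of the Wnt pathway genes passed, and the ligand genes overlapped between the groups. Of the 7 ligand and Wnt release genes, 4 had a higher and 3 a lower mean, with differences from -0.66 log2 for mig-14, the Wntless homolog, to 0.41 for the ligand gene cwn-1. The ligand genes cwn-2, lin-44, egl-20 and mom-2 differed by 0.40, 0.37, -0.14 and -0.55 log2. Levels of egl-20, mom-2 and the Porcupine homolog mom-1 were low on every array of both groups, between 2.03 and 4.61, so the size of their differences is uncertain.

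Among 7 receptor genes the Ror homolog cam-1 read below N2 on all arrays, at 8.24, 8.44 and 8.63 against 9.02, 9.39 and 8.78. Its difference was -0.62 log2 (SE 0.20, adjusted p = 0.251 in limma), and a second cam-1 probe set differed by -1.23 log2 (adjusted p = 0.127). The Frizzled genes mig-1, lin-17, mom-5 and cfz-2 differed by -0.61, -0.22, 0.31 and 0.51 log2, and the Ryk gene lin-18 by -0.23. Second probe sets of mig-1, lin-17, mom-5 and cfz-2 differed by -0.42, -0.30, -0.12 and -0.54 log2, all with overlap. The Van Gogh gene vang-1 was at 4.38 to 4.65 in underactivation, and N2 replicate 2 alone set its difference of -0.92, at 7.50 against 4.51 and 4.31 on the other N2 arrays.

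In the destruction complex and its Dishevelled inhibitors, 6 of 8 genes had a lower mean, against 46.1% of all genes, and 2 lay below N2 on all arrays, against 6.44%, and 0 passed. The casein kinase gene kin-19 read 9.86, 10.25 and 9.69 against 10.87, 10.70 and 10.36, and the APC-related gene apr-1 read 6.30, 6.28 and 5.60 against 6.36, 6.49 and 7.05. Their differences were -0.71 (SE 0.27) and -0.57 log2 (SE 0.39). The kinase gene gsk-3 differed by -0.90 log2 and the Dishevelled genes dsh-1, dsh-2 and mig-5 by -0.25, 0.10 and -0.63. Other probe sets differed by 0.14 and -0.48 log2 for dsh-1, -0.14 for dsh-2 and -0.70 for mig-5. The Axin gene pry-1, itself under Wnt control, read 4.14, 4.97 and 6.08 against 4.89, 4.21 and 5.62, and its second probe set differed by -0.46 log2 against 0.16 for the first. The Axin-like gene axl-1 differed by -0.30. On the probe sets taken for the genes, groups overlapped for all of these but kin-19 and apr-1.

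Of the β-catenin genes, hmp-2 lay above N2 on all arrays, at 7.27, 7.46 and 7.47 against 6.64, 6.81 and 7.06 (0.56 log2, SE 0.22, adjusted p = 0.325 in limma). HMP-2 acts mainly in cell adhesion. The signaling β-catenin genes sys-1 and wrm-1 differed by 0.20 and -0.55 log2, and their second probe sets by -0.24 and -0.21, with overlap. The kinase genes lit-1 and mom-4 and the TAB1-related tap-1, which act on POP-1, differed by -0.17, -0.03 and 0.03.

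Genes known downstream of Wnt signaling were read next, since ΔNTPOP-1 is meant to block them. Of 10 measured, 0 passed, 4 had a higher and 6 a lower mean, and the median was -0.11 log2 against 0.03 over all genes. It ranged from -0.36 without N2 replicate 2 and -0.34 without underactivation replicate 5 to 0.03 without underactivation replicate 4. The Hox gene mab-5 read 7.26, 5.63 and 7.95 in underactivation and 6.06, 5.79 and 5.65 in N2. Replicates 2 and 5 stood above every N2 array and replicate 4 below, and the difference was 1.11 log2 (SE 0.50). A second mab-5 probe set differed by 0.04 log2, with overlap. The homeobox gene ceh-22, a target in the gonad lineage, lay below N2 on all arrays, at 5.00, 4.41 and 5.07 against 5.32, 6.62 and 5.90 (-1.12 log2, SE 0.38, adjusted p = 0.270 in limma). The GATA gene end-1, which acts in the embryo, differed by -1.27 log2 at levels between 3.05 and 5.83, and the Hox gene egl-5 by -1.13, with N2 replicate 2 at 5.70 and every other array of both groups at or below 3.22.

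Markers of the cells in which the tag is driven were without overlap in 2 of 16 seam cell and 3 of 18 vulval precursor genes, near the 15.8% of all genes. Of 16 measured seam cell markers, 2 (12.5%) lay above N2 on all arrays and 0 below, against 9.4% of genes above and 6.44% below over the whole array, and the median was 0.11 log2. The nuclear receptor gene nhr-25, a regulator of epidermal fates, was 1 of the 2, at 7.73, 7.53 and 7.86 against 6.80, 7.32 and 6.79 (0.74 log2, SE 0.26). A second nhr-25 probe set differed the other way, by -0.79 log2, with overlap. The hedgehog-related wrt-2, a seam marker, read 10.91, 10.17 and 9.86 against 8.02, 8.16 and 10.63, with N2 replicate 4 within the underactivation range. The Dispatched homolog che-14 read 7.51, 6.04 and 7.65 against 3.91, 5.87 and 6.76. A second che-14 probe set differed by 0.53 log2, with overlap. The Runx gene rnt-1, which keeps seam cells dividing, had the lower mean, at 5.17, 4.46 and 6.15 against 6.57, 6.06 and 6.31.

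Of 18 vulval precursor markers, 1 (5.56%) lay above N2 on all arrays and 2 (11.1%) below, against 9.4% and 6.44% of all genes, and the median was -0.07 log2. The phosphatase gene lip-1, which damps MAP kinase signaling, read 5.38, 5.86 and 5.39 against 6.45, 7.02 and 7.63 (-1.49 log2, SE 0.35, adjusted p = 0.133 in limma). The gene lst-4, a target of LIN-12 Notch, read 10.54, 9.74 and 10.58 against 8.97, 9.64 and 8.85. Its other probe sets differed by -0.08, -0.05 and 1.02 log2, all with overlap. The vulval transcription factor gene lin-31 read 7.36 and 7.51 on replicates 2 and 5, above all N2 arrays. It read 6.35 on replicate 4, within the N2 range of 5.98 to 6.42. A second lin-31 probe set differed by -0.37 log2, with overlap.

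Genes of the epidermis and its cuticle had mostly higher means. Of 16 hypodermis markers, 12 had a higher mean and 3 lay above N2 on all arrays, and the median was 0.60 log2. Of 24 genes for molting and the apical matrix, 19 had a higher mean, 2 (8.33%) lay above N2 on all arrays and 0 below. The median was 0.57 log2, and the share above N2 was near that of all genes. Of 145 genes for cuticle collagens, which make up most of the exoskeleton, 116 had a higher mean, 19 (13.1%) lay above N2 on all arrays and 2 (1.38%) below, and the median was 0.23 log2. The collagen median was 0.49 on replicate 2 and 0.09 and 0.11 on replicates 4 and 5, and it was 0.09 without underactivation replicate 2 and 0.08 without N2 replicate 4. Over all genes 53.9% had a higher and 46.1% a lower mean, and 9.4% lay above N2 on all arrays and 6.44% below. In limma 0 members of these lists passed. The overactivation medians minus N2 were 0.72 log2 for hypodermis markers, 0.75 for molting genes and 0.505 for collagens.

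Single genes of these lists show how much of this rested on N2. The collagen genes dpy-8 and dpy-9 read 10.30, 8.82 and 9.46, and 8.43, 7.0 and 7.81, in underactivation, against 6.42, 8.40 and 9.13, and 5.68, 6.71 and 7.46, in N2. In both, N2 replicate 2 was lowest and N2 replicate 4 was within the underactivation range. Without N2 replicate 2 the hypodermis median was 0.34 log2 and the molting median 0.37. The zona pellucida domain gene noah-1 read 11.76, 10.76 and 11.58 against 10.12, 10.46 and 10.80, and the lipocalin-related lpr-3 read 11.15, 10.32 and 10.79 against 8.79, 9.25 and 10.53. Underactivation replicate 4 was the lowest of its group in both. The collagen col-98 was more even in N2 only, at 8.26, 7.57 and 8.89 in underactivation against 7.0, 7.02 and 7.04 in N2 (1.22 log2, SE 0.38). Replicate 4 was again its lowest underactivation array. The collagen col-76 lay below, at 7.74, 7.59 and 7.52 against 8.04, 10.30 and 9.56.

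Of 81 hedgehog-related and patched-related genes, 11 (13.6%) lay above N2 on all arrays and 4 (4.94%) below, against 9.4% and 6.44% of all genes. The median was 0.14 log2, or 0.08 without underactivation replicate 2 and 0.28 without replicate 4. The patched-related gene ptr-22 read 7.29, 6.57 and 7.03 against 3.34, 2.56 and 5.19 (3.27 log2, SE 0.75, adjusted p = 0.126 in limma). The warthog gene wrt-7 read 4.72, 5.32 and 4.48 against 3.95, 4.01 and 3.80. The Patched homolog ptc-1 lay below N2, at 8.06, 7.48 and 8.24 against 8.77, 8.75 and 8.95 (-0.90 log2, SE 0.23). The spread of ptr-22 across N2 was the widest of these.

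Markers of tissues outside the hypodermis had mostly lower means. Overactivation carries the same tag, mutations and marker transgenes, and its actin and Gapdh control values all lay above the N2 ranges. Its medians were also negative, at -0.60 log2 for body wall muscle, -0.57 for neuronal and -0.44 for germline markers. They were -1.0 for intestine, -0.33 for pharynx, -0.99 for basement membrane genes and -0.66 for constitutive chaperones. Here fewer cells of a type, less RNA per cell, RNA integrity or amplification and, if pulled-down mRNA was hybridized, recovery by the tag cannot be told apart. Of 25 body wall muscle markers, 21 had a lower mean, 8 (32.0%) lay below N2 on all arrays and 1 above, and the median was -0.49 log2. Over all genes 46.1% had a lower mean, 6.44% lay below N2 on all arrays and 9.4% above. The muscle myosin gene unc-54 read 10.06, 11.28 and 10.23 in underactivation and 11.52, 11.79 and 12.14 in N2 (-1.29 log2, SE 0.36). The vinculin gene deb-1 read 9.14, 9.89 and 8.98 against 10.26, 10.13 and 10.64, and the integrin adhesion gene unc-112 read 8.76, 9.14 and 9.08 against 9.37, 10.35 and 9.87. Second probe sets of deb-1 and unc-112 differed by -0.18 and -0.78 log2, with overlap. None passed, with 0.167 the smallest adjusted p of the list in limma, for the muscle attachment gene unc-98. Replicate 4 lay nearest to N2 in unc-54, deb-1 and unc-112.

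Of 29 neuronal markers, 22 had a lower mean, 7 (24.1%) lay below N2 on all arrays and 1 above. The shares over all genes were 46.1%, 6.44% and 9.4%. The median of the list was -0.57 log2, or -0.34 without N2 replicate 3. The calcium channel gene unc-2 read 6.41, 7.79 and 6.21 against 8.64, 9.54 and 8.95 (-2.24 log2, SE 0.59, adjusted p = 0.171 in limma), but its other probe sets differed by 0.13, -0.33 and -0.45. The proprotein convertase gene egl-3, which processes neuropeptides, read 10.22, 10.82 and 10.44 against 11.27, 11.48 and 11.74 (-1.0 log2, SE 0.23). Synaptobrevin, snb-1, was the marker above N2, at 10.28, 10.49 and 10.46 against 9.77, 9.66 and 9.92. A second snb-1 probe set differed by 0.23 log2, with overlap. Of 25 FMRFamide-like neuropeptide genes 21 had a lower mean and 4 lay below N2 on all arrays, among them flp-19 and flp-13, and flp-8 lay above, at 11.57, 11.69 and 11.91 against 11.24, 11.24 and 10.77. Second probe sets of flp-19 and flp-8 differed by -0.31 and 0.67 log2, with overlap.

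Of 20 germline markers, 20 had a lower mean and 7 (35.0%) lay below N2 on all arrays, against 46.1% and 6.44% of all genes. The median was -0.52 log2. The translational repressor gene gld-1 read 5.79, 7.19 and 5.08 against 8.78, 7.41 and 7.22, with replicate 4 just under the N2 range. Of 21 Argonaute genes, 10 had a higher and 11 a lower mean, 1 lay above and 3 below N2 on all arrays, and the median was -0.06 log2. The nuclear hrde-1 read 5.57, 7.57 and 5.13 against 7.58, 8.26 and 7.89, and csr-1 read 4.29, 6.35 and 4.30 against 6.03, 7.19 and 7.74, with replicate 4 the nearest to N2 in each. Other hrde-1 probe sets differed by -0.20 and -0.53 log2, with overlap. Major sperm protein genes, 23 measured, read low on all arrays, with mean levels per array from 4.10 to 4.82, and a median difference of 0.04 log2.

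Of 25 intestine markers, 16 had a lower mean, 5 (20%) lay below N2 on all arrays and 0 above. Over all genes the shares were 46.1%, 6.44% and 9.4%. The median of the list was -0.45 log2. This median came mainly from 1 array. It was -0.86 on replicate 2 and -0.03 and -0.11 on replicates 4 and 5, and without replicate 2 it was -0.09. The peptide transporter gene pept-1 read 4.73, 5.83 and 5.73 against 7.87, 7.76 and 6.40, the intermediate filament gene ifb-2 read 5.99, 8.25 and 7.83 against 9.29, 9.20 and 9.01, and the acid phosphatase gene pho-1 read 6.24, 7.99 and 7.68 against 9.11, 8.76 and 8.26. Replicate 2 was lowest in each, and the groups did not overlap. Of 15 pharynx markers 4 lay below N2 on all arrays, among them the FoxA gene pha-4, and the troponin C gene tnc-2 lay above, at 8.66, 7.97 and 9.92 against 7.59, 6.76 and 7.24.

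Basement membrane genes had the lowest median of the lists. Of 16 measured, 14 had a lower mean, 9 (56.2%) lay below N2 on all arrays and 1 above, and the median was -0.68 log2. Of all genes 46.1% had a lower mean, 6.44% lay below N2 on all arrays and 9.4% above. Basement membranes are the extracellular sheets under epithelia and around muscle, and in C. elegans many of their proteins are made by muscle and gonad. The hemicentin gene him-4 read 3.65, 4.70 and 4.47 against 5.76, 5.67 and 5.55 (-1.39 log2, SE 0.32, adjusted p = 0.129 in limma). The giant matrix gene dig-1 read 7.60, 8.53 and 7.35 against 9.61, 9.74 and 9.71, and papilin, mig-6, read 7.55, 8.78 and 7.36 against 9.31, 9.04 and 10.04. For the collagen IV gene let-2 replicate 4, at 8.51, reached the N2 range of 8.45 to 9.66, whereas replicates 2 and 5 read 6.59 and 6.64.

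Of 18 constitutive chaperones, 17 had a lower mean and 4 (22.2%) lay below N2 on all arrays, against 46.1% and 6.44% of all genes. The median was -0.50 log2. It was -0.08 on replicate 4 and -0.86 and -0.64 on replicates 2 and 5, and -0.28 without replicate 2. The mitochondrial chaperonin gene hsp-60 read 6.28, 7.73 and 6.74 against 8.17, 8.76 and 8.23. In insulin and TOR signaling, where 4 of 15 genes lay below N2 on all arrays, the S6 kinase gene rsks-1 had the largest difference, at 3.97, 4.74 and 3.65 against 7.11, 7.89 and 5.95 (-2.87 log2, SE 0.51, adjusted p = 0.0950 in limma). The FOXO gene daf-16 read 10.28, 10.28 and 10.26 against 10.94, 11.08 and 10.80, a small difference of -0.67 log2 (SE 0.16) with a very narrow spread in underactivation on this probe set. Other daf-16 probe sets differed by -0.70 log2, all below N2, and by -0.02 and -1.24, with overlap. Neither rsks-1 nor daf-16 passed.

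**Figure D4:**
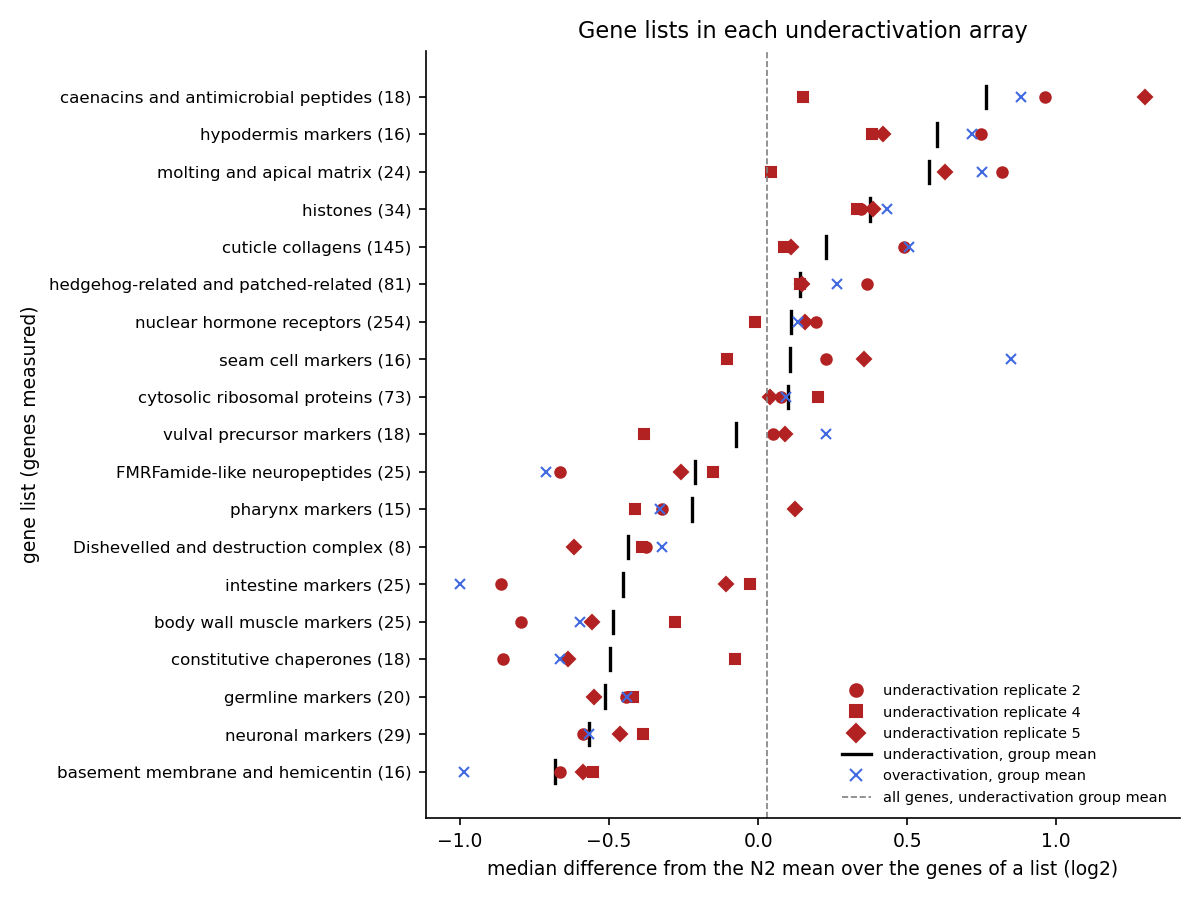
Median difference from the N2 mean (log2) over the genes of 19 lists, for each underactivation array (red symbols), for the underactivation group means (black bars) and for the overactivation group means (blue crosses), with the median of all genes as a dashed line. Epidermal lists lie to the right and muscle, neuronal, germline and basement membrane lists to the left, and the square of replicate 4 is often the symbol nearest to 0.

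Among gene families, nuclear hormone receptors had 37 of 254 genes (14.6%) above N2 on all arrays and 11 (4.33%) below. Over all genes these shares were 9.4% and 6.44%. The receptor median was 0.11 log2, or 0.04 without N2 replicate 4 and 0.19 without underactivation replicate 4. Besides the receptors above, nhr-142 read 8.51, 8.09 and 8.16 against 6.20, 5.99 and 6.73, and nhr-212 read 7.18, 6.42 and 6.99 against 5.38, 5.64 and 5.20. Of 177 genes for UDP-glucuronosyltransferases, cytochromes P450 and glutathione S-transferases, enzymes of detoxification, 24 (13.6%) lay above and 3 (1.69%) below. The gene ugt-63 read 9.68, 8.71 and 9.61 against 7.19, 6.44 and 7.19 (2.40 log2, SE 0.37, adjusted p = 0.0799 in limma), and cyp-29A3 read 7.28, 6.29 and 6.32 against 4.60, 5.03 and 5.26. Their groups did not overlap, and neither passed.

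Cytosolic ribosomal protein genes lay mostly slightly above N2, and none passed. Of 73 measured, 55 had a higher mean, 18 (24.7%) lay above N2 on all arrays and 0 below. Over all genes these shares were 53.9%, 9.4% and 6.44%. The ribosomal median was 0.10 log2, or 0.04 without underactivation replicate 4, and differences ranged from -0.45 to 0.69. Histone genes, many of them near-identical copies whose probe sets may not tell them apart, had 8 of 34 above and 2 below and a median of 0.38 log2. Of 18 caenacin and other antimicrobial peptide genes, 18 had a higher mean. On all arrays 2 (11.1%) lay above N2, near the 9.4% of all genes, and the median was 0.76 log2. In this last list the arrays disagreed, at 0.96, 0.15 and 1.30 on replicates 2, 4 and 5. The median was 0.44 without N2 replicate 4 and 1.03 without underactivation replicate 4. The caenacin gene cnc-3 read 12.27, 11.94 and 12.23 against 10.56, 10.83 and 11.22 (1.28 log2, SE 0.24, adjusted p = 0.0976 in limma), and cnc-7 read 11.38, 10.99 and 11.72 against 10.06, 9.09 and 8.14.

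Of the other families, 220 C-type lectins, 103 MATH and BTB domain genes, 310 F-box genes, 60 homeobox ceh genes and 86 transmitter receptor subunits had medians within 0.05 log2 of that of all genes. Single members still separated the groups. The insulin-like gene ins-11 read 7.87, 6.90 and 7.16 against 4.44, 4.36 and 6.01 (2.37 log2, SE 0.48), and ins-33, one more of that family, read 8.67, 7.63 and 10.79 against 7.32, 5.04 and 7.38. In the same family ins-7 and ins-30 were lower, by -1.58 and -1.05 log2. Of its 23 genes 4 (17.4%) lay above N2 on all arrays and 2 (8.7%) below, against 9.4% and 6.44% of all genes. The family median was 0.08 log2. The glutamate receptor gene glr-1 read 7.60, 7.56 and 7.27 in underactivation, 8.38, 8.17 and 8.54 in N2 and 5.86, 6.14 and 6.16 in overactivation. Underactivation minus overactivation was 1.42 log2 for glr-1 (adjusted p = 0.0786 in limma), with no overlap among the 3 groups.

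Other probe sets of a gene often did not repeat a separation. Where the probe set taken for a gene lay above N2 on all underactivation arrays, 64 of 325 other probe sets of those genes (19.7%) also did and 13 lay below N2 on all arrays. Where it lay below, 148 of 444 others (33.3%) also did and 4 lay above. The mean sign was shared by 68.3% and 84.7% of the other probe sets.

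The spread among the underactivation arrays was the smallest of the groups. The median SD over probe sets was 0.273 log2 in underactivation, 0.325 in N2 and 0.293 in overactivation. An SD over 1 was found in 456 probe sets (2.02%) in underactivation, 1707 (7.57%) in N2 and 974 (4.32%) in overactivation. Of the 330 genes with an SD over 1 in underactivation, the array farthest from the other two was replicate 4 in 45.2%, replicate 5 in 36.1% and replicate 2 in 18.8%. Replicate 4 was the low array in 63.1% of its genes, and replicate 5 the high one in 87.4%.

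Among the 10 genes with the largest SD in underactivation, replicate 5 was the highest array in 8 and the lowest in 2. T22F3.11 read 4.56, 4.01 and 10.37 in replicates 2, 4 and 5, and 3.29 to 4.91 in N2. The flavin monooxygenase gene fmo-2 read 2.89, 4.18 and 7.61, the bestrophin gene best-1 read 6.13, 5.61 and 10.03, and C10C5.5, F22B5.4, C23G10.11 and F41C3.1 also had their highest value on replicate 5. In cyp-35B3, a cytochrome P450 gene, replicate 5 was the low array, at 3.81 against 7.48 and 8.69, and in the lectin gene clec-174 it read 6.91 against 8.87 and 11.10. The transporter gene pgp-14 read 7.01, 4.49 and 8.57, with replicate 4 lowest. Groups overlapped in 8 of these 10 genes, and F22B5.4 and C23G10.11 lay above N2 on all arrays.

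**Figure D5:**
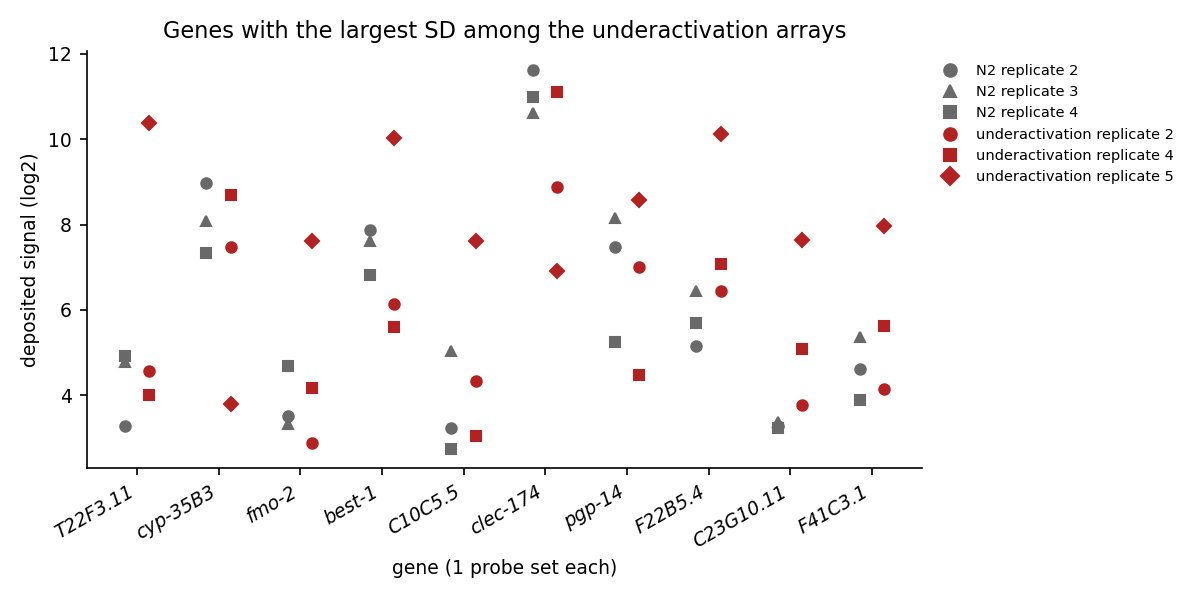
Deposited log2 signal of the 10 genes with the largest SD among the underactivation arrays, in N2 (grey) and underactivation (red), with symbols for the replicate. Replicate 5 (diamond) is the highest underactivation array in 8 of the genes and the lowest in cyp-35B3 and clec-174.

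The position of replicate 4 showed in the lists too. Over all 43 lists the 3 arrays had the same sign in 26. Replicate 4 was nearest to N2 in 22 of them, replicate 2 in 12 and replicate 5 in 9. In the 11 lists with a median of at least 0.4 log2 in size, all 3 arrays had the same sign. These were picked by the median over the same arrays, so this agreement is partly built in. Of these 11, replicate 4 was the one nearest to N2 in 10. Leaving it out moved the intestine median to -0.76 log2, the chaperone median to -0.70, the basement membrane median to -0.84, the molting median to 0.81 and the germline median to -0.39. Without replicate 4, 0 probe sets passed in limma, 3107 had an unadjusted p under 0.05 and 6305 were at least 1.5-fold from N2, against 2890 and 5214 with it.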

How the data were processed

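The 9 arrays, of the Affymetrix C. elegans GeneChip, were grouped by the titles and strains of the sample labels. Columns of values not used numbered 0, and arrays of a further strain named in the methods, deIs10;scm::gfp, were not analysed here. The deposited log2 values were made by the authors with Robust Multichip Average in Partek, in versions not given in the sources used here, and were used unchanged. This normalization gives all arrays one distribution, so a shift common to most transcripts would not show. By the methods, arrays of a group are biological replicates. Depth has no counterpart on arrays, and their number limits the precision.

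Probe sets were named through the platform annotation, with symbols updated by gene identifier from RefSeq (WBcel235): 20766 had 1 gene, 887 several and 895 none, and 20701 identifiers matched. Genes without a matched identifier keep the older name. For each gene the brightest probe set that matches it alone, by mean signal over 9 arrays, was taken (17118 genes, 2981 with several probe sets). No level was tested against background.

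A model with 3 groups was fitted to all 22548 probe sets that are not among the 77 array controls with limma 3.58.1 in R 4.3.3 (6 residual and 2.71 prior degrees of freedom), two-sided, adjusted by Benjamini-Hochberg at 0.05. An exact permutation of 3 against 3 arrays cannot go below a p of 0.1 and was not used. The fit was tested on simulated data. Figures were made in Python 3.11.15 using matplotlib 3.10.9.

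Members and the 43 gene lists were chosen with earlier results of these data known. Named genes are, per direction, the 12 with the smallest p whose groups do not overlap, all strain and Wnt genes, up to 4 genes per list by p, the 10 with the largest SD in underactivation, and hsp-16 genes with hsp-70. Of the genes lower than N2, 1 that the rule selects is not reported here. Not covered by this rule are rig-4 and dod-23, chosen once their values were known. Lists are described by counts and medians, with no set test. Alternatives were quantile normalization again, centring, a filter that dropped the dimmest 0.333 of probe sets, no moderation, trend and robust moderation, only both groups, array weights, the replicate number as a block, each array left out, and averaging all probe sets that match a gene. Leaving out both arrays numbered 4 was chosen after seeing the data.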

Additional observations from a re-analysis of the deposited data

How the results depend on the processing

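The count of 1 probe set called, 0 higher and 1 lower, moved with most settings. Quantile normalization again gave 2 calls, both lower, and a filter that dropped the dimmest 0.333 of probe sets, so that it adjusts over 15032, gave 16, of which 11 were higher and 5 lower, with rig-4, ajm-1, nhr-237, nhr-152, pop-1, nuaf-6, ifo-1 and C46F2.1 among them. Trend and robust moderation gave 1 call higher and 0 lower, F29C6.1 in place of rig-4. There were 0 calls without moderation, with underactivation and N2 alone in the fit, and without both arrays numbered 4, with 2258, 2806 and 2936 probe sets at an unadjusted p under 0.05. The cause of these changes was not tested. Leaving out each array in turn gave 0 to 3 calls, 0 to 1 higher and 0 to 3 lower, 5025 to 6305 probe sets past 1.5-fold, and 1879 (without underactivation replicate 5) to 3107 (without underactivation replicate 4) at an unadjusted p under 0.05. The 3 calls without N2 replicate 4 were unc-82, C46F2.1 and str-206.

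Residual correlations of same-numbered arrays in different groups were highest, at 0.23, for replicate 4 of N2 and of underactivation. The other pairs lay between -0.09 and 0.08. The numbers were not taken to pair samples in the main fit, and blocks of them were tried as alternatives. With the replicate block as a fixed term 0 probe sets passed and 1942 had an unadjusted p under 0.05, and with a random replicate block 1 passed, rig-4. No named difference that passed in any setting changed direction. Of 43 list medians, 27 kept their sign in every alternative, and the other 16 were at most 0.23 log2 in size. Genes that read low in a group have uncertain differences, since signal over background was not measured here.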
